A study of Mus musculus with 4 samples.

Results

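Transcripts of 10 genes that fold or degrade proteins inside mitochondria were followed in cultured mouse AGM tissue (aorta, gonad and mesonephros), with or without CCCP. The genes were taken by name and all 10 were found among the 49997 genes counted in each library: Hspd1, Hspe1, Hspa9, Dnaja3 and Trap1 (chaperones), Clpp, Clpx, Lonp1, Afg3l2 and Htra2 (proteases, with the unfoldase partner of one of them). All 10 passed the filter on low counts that left 19837 genes for testing. They were chosen with earlier results of these data known. Htra2 is known as a protease of the intermembrane space and Afg3l2 as a protease of the inner membrane that faces the matrix, so the set is wider than the matrix alone.

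The AGM is where the first definitive haematopoietic stem cells of the embryo arise. Tissue was dissected from C57BL/6J embryos and kept at the gas-liquid interface in MyeloCult medium with hydrocortisone for 48 hours. The untreated group had 2 libraries. The CCCP group had 2 libraries from explants given 5 µM CCCP, a protonophore that dissipates the proton gradient across the inner mitochondrial membrane. The growth protocol gives stages E10.5 and E11.5, the series design E10.5 alone. That design also speaks of c-kit+ stem cells, but RNA was extracted from explants according to the extraction protocol. Nothing in the labels says whether the replicates came from separate litters or dissections, so a p-value here measures the spread between these libraries, which may be technical.

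Proteins enter mitochondria unfolded. The Hsp70 of the matrix, Hspa9, pulls them in and holds them, with Dnaja3 as one of its J-domain partners, and the barrel of Hspd1 with its lid Hspe1 encloses them while they fold. Lonp1 and the ClpXP complex degrade matrix proteins, ClpXP being built from the peptidase Clpp and the ATP-driven unfoldase Clpx. When matrix proteins misfold, cells can raise transcripts of such chaperones and proteases, a programme called the mitochondrial unfolded protein response, in which the transcription factors Ddit3 (CHOP), Atf4 and Atf5 have been placed.

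Promoter sequences are shown first for the genes on which the results turn. RefSeq windows on GRCm38.p6, from 250 bases before to 50 bases after a start site, were found for 7 of the 10 genes; Hspa9, Afg3l2 and Htra2 are named only. The window of Hspe1 is chr1:55087898-55088197, plus strand, and it also holds an annotated start of Hspd1, which lies on the minus strand, at position 55087932. A second Hspd1 window, with its start at 55088243, is not shown and held no match to the motifs searched. The Hspe1 window is shown because starts of 2 members fall in it. Clpp (chr17:56990014-56990313, plus strand) and Clpx (chr9:65294010-65294309, plus strand) are shown as the pair that encodes ClpXP, and Lonp1 (chr17:56626854-56627153, minus strand) as the other ATP-dependent matrix protease. Capitals mark the letters of a motif searched on both strands.
Hspe1: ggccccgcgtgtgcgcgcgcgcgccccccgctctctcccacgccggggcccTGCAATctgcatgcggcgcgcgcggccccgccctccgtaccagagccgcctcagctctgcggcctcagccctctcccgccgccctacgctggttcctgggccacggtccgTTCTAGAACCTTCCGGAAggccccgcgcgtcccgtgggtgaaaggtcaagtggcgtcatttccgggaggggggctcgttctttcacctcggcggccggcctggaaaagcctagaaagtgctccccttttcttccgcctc
Clpp: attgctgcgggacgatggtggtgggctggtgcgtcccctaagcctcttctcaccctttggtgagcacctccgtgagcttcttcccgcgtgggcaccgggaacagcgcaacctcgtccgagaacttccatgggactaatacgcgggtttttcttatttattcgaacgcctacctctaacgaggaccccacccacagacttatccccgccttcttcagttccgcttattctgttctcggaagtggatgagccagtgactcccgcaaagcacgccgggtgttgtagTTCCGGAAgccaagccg
Clpx: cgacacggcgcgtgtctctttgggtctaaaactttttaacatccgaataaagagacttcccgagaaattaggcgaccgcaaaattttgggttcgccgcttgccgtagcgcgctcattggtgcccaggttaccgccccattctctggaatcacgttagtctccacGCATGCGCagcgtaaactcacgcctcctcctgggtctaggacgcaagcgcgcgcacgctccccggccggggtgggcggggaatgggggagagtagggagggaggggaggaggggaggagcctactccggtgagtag
Lonp1: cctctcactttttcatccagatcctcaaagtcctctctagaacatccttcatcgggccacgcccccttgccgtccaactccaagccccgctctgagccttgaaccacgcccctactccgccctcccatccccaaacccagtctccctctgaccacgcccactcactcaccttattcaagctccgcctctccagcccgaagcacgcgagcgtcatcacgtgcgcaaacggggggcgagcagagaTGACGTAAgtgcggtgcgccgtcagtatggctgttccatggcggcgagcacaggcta

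The heat shock element, the site of heat shock factors, was searched as 2 units, TTCNNGAA, and as 3 units, in which NNTTC follows these letters. The longer form occurred in 0.603% of the 32851 windows of this length and, among the members, only in the stretch that Hspd1 and Hspe1 share, where 2 overlapping matches run from 55088059 to 55088076. The 2-unit form occurred in 8.52% of all windows and, beside the shared stretch, in that of Clpp, downstream of its start. A core bound by CHOP and C/EBP factors, TGCAAT, was also in the shared stretch and is in 8.4% of windows. The composite element of ATF4 and CHOP, searched as TGATGNAA and present in 3.97% of windows, matched none of the members' windows. A cyclic AMP response element-like sequence, TGACGTNA (2.93% of windows), was in those of Lonp1 and Trap1, and the NRF1 core GCATGCGC (2.71%) in that of Clpx. A match describes letters in a window and says nothing of occupancy.

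The libraries held 37360968 to 48827826 counted reads, with the deeper library numbered 1 in both groups. The 10 genes together took 0.154% and 0.187% of the counts in the untreated libraries (replicates 1 and 2) and 0.174% and 0.172% in the CCCP libraries. Both untreated values thus enclosed the CCCP values. Blood and endothelial markers were present. Kit, the highest of 8 blood markers, stood at 47.6 to 63.2 CPM (read counts scaled to library size with TMM factors). Cdh5 stood at 134 to 177 CPM over the 4 libraries. Of the blood markers, Gfi1, at 0.107 to 0.247 CPM, did not pass the filter on low counts, and Spn stood at 0.206 to 1.26 CPM. The hepatic markers Alb and Afp were present as well. All 12 hepatic markers lay lower in both CCCP libraries, with a summed level of 1016 to 1788 CPM in the untreated and 53.6 to 111 CPM in the CCCP libraries, and Ahsg was at 0 counts in CCCP replicate 1. Groups also did not overlap for Ptprc and Spn of 7 blood markers tested and for Kdr, Tek and Flt1 of 7 endothelial markers, all lower with CCCP. They lay higher for 2 of 7 erythroid, 2 of 6 macrophage and 1 of 6 skeletal muscle markers, and for 3 of 6 neural markers with 1 lower. Of all genes tested, 24.0% lay higher in both CCCP libraries and 24.8% lower. Outside the hepatic list, with 6 or 7 markers each, these counts were not clearly apart from those shares. In bulk RNA, fewer cells of a type and less RNA per cell cannot be told apart. The part of these differences in the values of the 10 genes was not tested.

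Per kilobase of exon, which allows genes to be compared, the chaperones Hspa9, Hspd1 and Hspe1 stood highest. The mean over the 4 libraries was 208 CPM per kb for Hspa9, 187 for Hspd1 and 161 for Hspe1. The ranges of these 3 genes overlapped one another. Lonp1 followed at 42.0 to 53.3 CPM per kb, apart from the genes above and below it. Trap1, the mitochondrial Hsp90 (28.4 to 35.9), and Clpp (23.5 to 37.3) overlapped. Dnaja3 (16.4 to 23.5), Clpx (16.7 to 19.5) and Afg3l2 (16.1 to 18.9) could not be ordered beyond their spread. Htra2 was lowest, at 11.8 to 15.4 CPM per kb, under every library of Afg3l2. By CPM, without the length correction, Hspa9 exceeded 99.2% of the genes tested and Htra2 exceeded 58.8%.

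**Figure D1:**
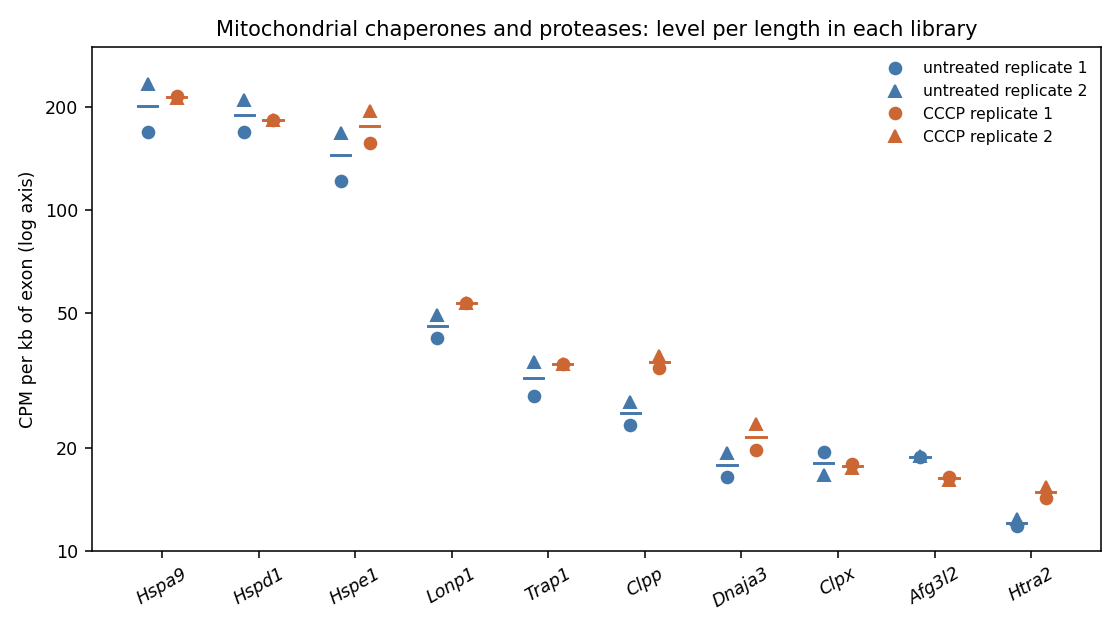
Level of each of the 10 genes per kilobase of exon (CPM per kb, log axis) in each library; circles and triangles are replicates 1 and 2, and bars are group means (n = 2). Hspa9, Hspd1 and Hspe1 lie at 122 CPM per kb or more in every library and Htra2 lies between 11.8 and 15.4.

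No member passed the threshold of 0.05 on the adjusted p-value of edgeR (quasi-likelihood test, Benjamini-Hochberg adjustment over all genes) in either direction. Among all 19837 genes none did either (0.0% in each direction). Of all genes, 2899 (14.6%) had an unadjusted p under 0.05, 5.45% in the higher and 9.16% in the lower direction, and of the members 1 did, Clpp. No member was called by DESeq2, which called 0.329% of genes higher and 2.99% lower, or by edgeR without the filter on low counts, which called 0.673% higher and 2.76% lower. With the replicate number as a block in edgeR, 1 member, Clpp, was called higher, where 3.8% of all genes were called higher and 6.88% lower. Of the 10 members, 7 had a positive and 3 a negative log2 fold change (CCCP over untreated), where 49.2% of all genes were positive and 50.8% negative. Their median was 0.18, against -0.01 over all genes tested. For 4 members (Clpp, Htra2, Dnaja3 and Lonp1) the lower CCCP value exceeded the higher untreated value, where 24.0% of all genes did so. For 1 member, Afg3l2, both lay below, where 24.8% of all genes did so. The 5 of 10 members without overlap are close to the 48.8% of all genes. An exact permutation test on a single gene is not given, since its two-sided p cannot go below 0.333 with 2 libraries against 2.

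Clpp, the peptidase of ClpXP (chromosome 17, 56990264 to 56996371), stood farthest from 0 among the members. Its CPM was 28.3 and 32.9 in untreated replicates 1 and 2 and 41.6 and 45.04 in CCCP replicates 1 and 2. Both CCCP libraries were thus above both untreated ones, and the groups did not overlap. The means were 30.6 ± 3.28 and 43.3 ± 2.47 CPM (SD, n = 2). On the log2 scale CCCP was 0.50 higher (SE 0.138), and the 95% interval before any adjustment ran from 0.16 to 0.84. Its unadjusted p in edgeR was 0.0107. The adjusted p was 0.241 in edgeR and 0.122 in DESeq2, and over the alternatives it ran from 0.0194 (edgeR with the replicate block) to 0.832 (edgeR without CCCP replicate 2). Its log2 fold change exceeded that of 94.1% of all genes tested, and ran from 0.40 to 0.63 when libraries were left out in turn.

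Clpx (chromosome 9, 65294251 to 65330658), which unfolds proteins and feeds them to Clpp, showed no such separation. It stood at 57.7 and 49.4 CPM in the untreated libraries and at 53.4 and 51.8 CPM in the CCCP libraries. Both CCCP values lay between the untreated ones. The log2 fold change was -0.03, with a 95% interval of -0.34 to 0.28, and it was 0.10 without untreated replicate 1 and 0.10 with the GC trend removed. The ratio of Clpp to Clpx per kilobase was 1.20 and 1.63 untreated, against 1.91 and 2.13 with CCCP. That ratio was higher in both CCCP libraries, by 0.52 on the log2 scale (0.30 without untreated replicate 1), or by 0.24 as the difference of the fitted values with the GC trend removed.

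Lonp1 (chromosome 17, 56614297 to 56626903), an ATP-dependent protease that also degrades oxidised proteins, stood at 125 and 146 CPM in the untreated libraries. Both CCCP libraries gave 158 CPM. The groups did not overlap, but the distance between the untreated libraries, 1.17-fold, was about that between the groups. The fitted difference was 0.23 on the log2 scale (SE 0.125, edgeR adjusted p 0.444). Leaving out untreated replicate 1 gave 0.13 and leaving out untreated replicate 2 gave 0.36.

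Htra2 (chromosome 6, 83051266 to 83054571), a serine protease known for its release into the cytosol in apoptosis, stood at 20.4 and 21.4 CPM untreated and at 24.7 and 26.6 CPM with CCCP. Here the gap between groups was wider than either gap within a group. In the fit the log2 fold change was 0.30 (SE 0.145, edgeR adjusted p 0.396). Of its exon bases, 77 (4.46%) are shared with Aup1 on the opposite strand, which unstranded counting cannot separate.

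Afg3l2 (chromosome 18, 67404764 to 67449192), an ATP-dependent protease of the inner membrane, was the member with the smallest value for the larger of its within-group gaps. It stood at 83.3 and 83.9 CPM untreated and at 73.1 and 71.3 CPM with CCCP. Both CCCP libraries were lower, and the difference of -0.21 on the log2 scale was larger than the within-group gaps of 0.01 and 0.04. Its standard error was 0.107 and its edgeR adjusted p was 0.412, with an unadjusted p of 0.0962. Leaving out any 1 library kept it between -0.23 and -0.19. Spg7, which assembles with Afg3l2 in the m-AAA protease, stood at 53.6 and 50.3 CPM untreated and 57.8 and 56.5 CPM with CCCP. The ratio of Afg3l2 to Spg7 per kilobase was 0.917 and 0.984 in the untreated libraries against 0.747 and 0.745 in the CCCP libraries. On the log2 scale that difference was -0.35, and as the difference of the fitted values it was -0.22 with the trend on exon length removed and -0.18 with the GC trend removed.

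**Figure D2:**
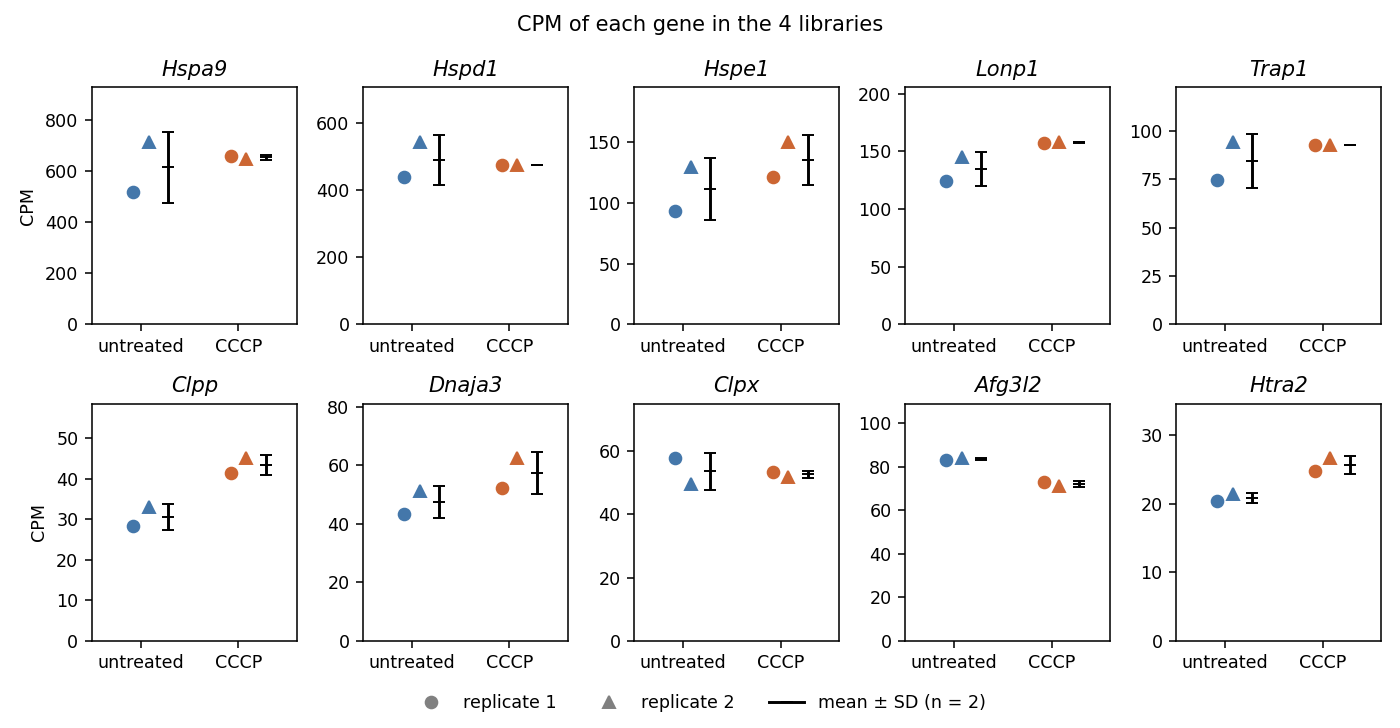
CPM of each gene (vertical axis from 0, a scale of its own in each panel) in untreated and CCCP libraries; circles and triangles are replicates 1 and 2, and black marks are the mean ± SD (n = 2). Clpp, Htra2, Dnaja3 and Lonp1 lie higher in both CCCP libraries, and Afg3l2 lies lower in both.

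Hspd1 (chromosome 1, 55077833 to 55088243), the chaperonin Hsp60, stood at 438 and 544 CPM in the untreated libraries. Both CCCP libraries lay between these, at 475 and 476 CPM. Its log2 fold change was -0.05 with a 95% interval of -0.42 to 0.32, and the sign turned without untreated replicate 2 (0.14) and with the GC trend removed (0.02). Hspe1 (chromosome 1, 55088148 to 55091317), the co-chaperonin Hsp10 that caps the Hspd1 barrel, stood at 93.4 and 129 CPM untreated and at 121 and 150.02 CPM with CCCP. CCCP replicate 1 lay within the untreated values and CCCP replicate 2 above them. The log2 fold change was 0.28, with a 95% interval of -0.19 to 0.75 and an edgeR adjusted p of 0.522. It came to 0.07 with untreated replicate 1 left out, 0.55 with untreated replicate 2 left out, 0.12 without CCCP replicate 2 and 0.07 with the exon length trend removed.

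Hspd1 and Hspe1 are thus neighbours with different values. Per kilobase, the ratio of Hspd1 to Hspe1 was 1.39 and 1.25 untreated, and 1.17 and 0.942 with CCCP. Both CCCP ratios were lower, by 0.33 on the log2 scale, and by 0.18 without CCCP replicate 2. As the difference of the fitted values, the change was -0.20 with the exon length trend removed and -0.37 with the GC trend removed. Exons of the 2 genes overlap by 96 bases, which is 12.5% of the exon bases of Hspe1 and 3.71% of those of Hspd1, and reads touching both genes were not counted. Hspd1 has processed copies elsewhere in the genome, which can take or remove reads: Hspd1-ps3 held 366 to 592 counts per library, against at least 17269 for Hspd1.

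Hspa9 (chromosome 18, 34937414 to 34954351), the matrix Hsp70 also called mortalin, stood at 517 and 714 CPM untreated and at 659 and 647 CPM with CCCP. Both CCCP values lay between the untreated values, which were 1.38-fold apart. The log2 fold change was 0.09, with a 95% interval of -0.36 to 0.54. With untreated replicate 1 left out it was -0.12, and with untreated replicate 2 left out 0.36.

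Dnaja3 (chromosome 16, 4684070 to 4707695), the J protein Tid1, stood at 43.5 and 51.3 CPM untreated and at 52.2 and 62.3 CPM with CCCP. The groups did not overlap, although untreated replicate 2 and CCCP replicate 1 nearly met. Dnaja3 had a log2 fold change of 0.27 (SE 0.149, edgeR adjusted p 0.436), and it was 0.14 without CCCP replicate 2. The ratio of Hspa9 to Dnaja3 per kilobase was 10.3 and 12.1 untreated and 10.99 and 9.04 with CCCP, and these ratios overlapped.

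Trap1 (chromosome 16, 4039971 to 4077840) stood at 74.6 and 94.2 CPM untreated and at 92.8 and 92.7 CPM with CCCP. Both CCCP values lay just under untreated replicate 2. Trap1 shares 54 exon bases (2.06%) with Dnase1 on the opposite strand. The log2 fold change was 0.14, with a 95% interval of -0.21 to 0.49, and it moved to -0.01 with untreated replicate 1 left out and to 0.33 with untreated replicate 2 left out.

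**Figure D3:**
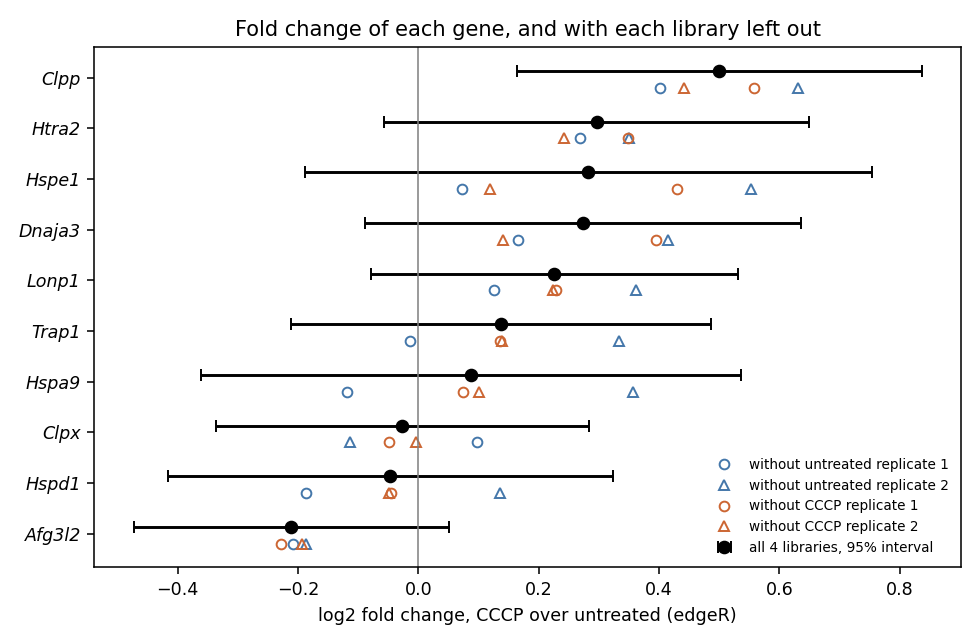
Fold change of each gene (log2, CCCP over untreated, edgeR) with all 4 libraries and its unadjusted 95% interval (black), and with each library left out (open symbols). The interval of Clpp alone excludes 0, and the values of Hspa9, Trap1, Hspd1 and Clpx lie on both sides of 0 depending on the untreated library left out.

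Untreated replicate 1 was the lowest library for 8 of the 10 members, where it was the lowest for 31.7% of all genes tested. Untreated replicate 2 was the highest for 4 of them (Hspa9, Hspd1, Trap1 and, marginally, Afg3l2), where it was for 21.5% of all genes. The column header of untreated replicate 1 differs by a letter from its sample title, so this library was assigned by the record of its file. The gap between the untreated libraries was larger than that between the CCCP libraries for 7 members, and 57.8% of all genes had that order. The median gap was 0.23 (log2) between the untreated and 0.04 between the CCCP libraries for the members, against 0.28 and 0.22 for all genes. The difference between group means was larger than both within-group gaps for 5 members: Clpp, Htra2, Dnaja3, Lonp1 and Afg3l2. These are the same 5 members whose groups did not overlap, which this condition implies, so the count adds nothing to that one. Its share over all genes was not computed.

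**Figure D4:**
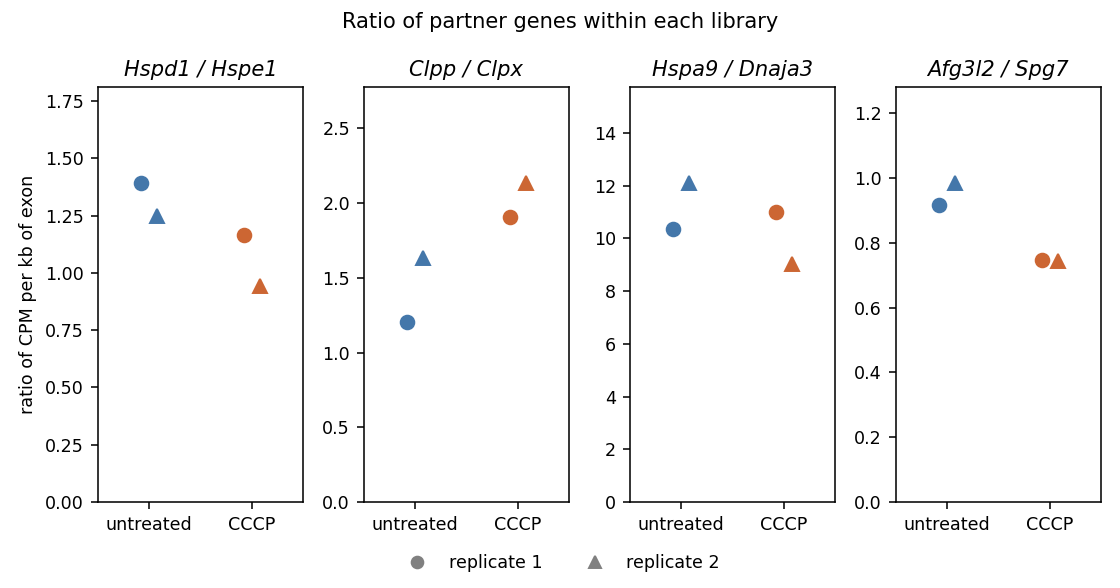
Ratio of CPM per kb of exon between partner genes within each library (vertical axes from 0); circles and triangles are replicates 1 and 2. The Clpp to Clpx ratio is higher, and the Hspd1 to Hspe1 and Afg3l2 to Spg7 ratios are lower, in both CCCP libraries, and the Hspa9 to Dnaja3 ratios overlap. Of all single genes tested, 48.8% had groups without overlap, and no such share was computed for ratios.

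Members differed in exon length and base composition, both of which went with the fold change across genes in these libraries. Genes in the shortest decile by exon length had a median log2 fold change of 0.22 and those in the longest decile -0.35. Hspe1, in the shortest decile with 768 bases, had 0.28. Clpp, with 1207 bases in the second decile, had 0.50 against a median of 0.19 there, and with 57.8% GC it sat in a GC decile whose median was 0.17. Afg3l2, the longest member at 4432 bases, had -0.21 against a median of -0.04 in its decile. With the trend on exon length removed, Clpp stood at 0.33, Htra2 at 0.16 and the members' median at 0.07. With the trend on GC content removed, Clpp stood at 0.34, Lonp1 at 0.08, Htra2 at 0.12 and the members' median at 0.11, and 9 of the 10 members were then positive. The part of library composition in these values was not tested beyond these fits.

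Other genes of the same machinery were read from lists. Like the members, the lists were chosen with earlier results of these data known. Their counts and medians are descriptions, and no list was tested. Among 13 further chaperones and cofactors, none passed the threshold in edgeR (smallest adjusted p 0.253), 12 were positive, and the median log2 fold change was 0.25. The CCCP values exceeded both untreated values for 8 of them, where 24.0% of all genes did so. In the alternative fits, calls were read only for the genes named from each list, here Dnlz, Phb and Grpel2. With the replicate block, edgeR called Dnlz (adjusted p 0.0270) and Phb (0.0202) of these, where it called 3.8% of all genes higher. Without the filter it called Phb (0.0430), where it called 0.673% of all genes higher. Dnlz, the zinc-finger escort of Hspa9, stood at 25.4 and 28.9 CPM untreated and 36.0 and 39.8 CPM with CCCP, a log2 fold change of 0.48. Phb, which with Phb2 forms the prohibitin ring that holds the m-AAA protease, stood at 73.9 and 96.3 CPM untreated and 114 and 121 CPM with CCCP, with 0.47, or 0.29 with untreated replicate 1 left out. Grpel2, a nucleotide exchange factor of Hspa9, had -0.01. Median exon length was 1901 bases in this list, against 3467 over all genes tested, and median GC was 52.2% against 49.9%. The deciles that hold these list medians had median log2 fold changes of 0.15 by exon length and 0.11 by GC. The part of length and GC in the medians of the lists was not tested.

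Of 15 genes listed as other mitochondrial proteases and peptidases, none passed in edgeR (smallest adjusted p 0.282), 11 were positive and the median was 0.14. The CCCP values exceeded both untreated values for 6 of the 15 and lay below both for 1, where 24.0% and 24.8% of all genes did so. The peptidases of the import pathway Mipep and Pmpcb had log2 fold changes of 0.42 and 0.27, without overlap of the groups. Leaving out untreated replicate 1 gave 0.25 and 0.13, and leaving out untreated replicate 2 gave 0.62 and 0.45. Pmpcb was called by edgeR with the replicate block and the GC trend removed together (adjusted p 0.0448). That fit called 219 genes higher and 483 lower of 17929. Yme1l1, the protease of the inner membrane that faces the intermembrane space and so the mirror of the complex of Afg3l2, stood at 163 and 179 CPM untreated and 122 and 140 CPM with CCCP. Both CCCP libraries were lower, with a log2 fold change of -0.38, but it was 0.01 with the GC trend removed. It was called lower by edgeR with the replicate block (adjusted p 0.0381), where 6.88% of all genes were called lower. Lactb2, which was on the list although it is known as a ribonuclease and not a protease, had -0.06 with overlapping groups. Median exon length in this list was 3688 bases and median GC 47.6%, in deciles with median log2 fold changes of -0.01 and -0.06.

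The list of 8 regulators held Ddit3, Atf5, Atf4, Cebpb, Hsf1, Sirt3, Dele1 and Eif2ak1. All 8 were positive with a median log2 fold change of 0.22, the CCCP values exceeded both untreated values for 7 of them (24.0% of all genes), and none passed in edgeR (smallest adjusted p 0.166). Ddit3 stood at 36.7 and 37.5 CPM untreated and 56.9 and 54.6 CPM with CCCP, with a log2 fold change of 0.59 (SE 0.114). Its adjusted p was 0.0141 in DESeq2 and ran from 0.00685 (edgeR with the replicate block) to 0.612 (edgeR without CCCP replicate 1) over the alternatives. Atf5 stood at 206 and 261 CPM untreated and 343 and 300.01 CPM with CCCP, with 0.46. It was called by edgeR with the replicate block (adjusted p 0.0389) and without the filter (0.0448). Of all genes, edgeR called 3.8% higher with the replicate block and 0.673% without the filter, and DESeq2 0.329%. Median exon length of the 8 regulators was 2198.5 bases and median GC 52.2%, in deciles with median log2 fold changes of 0.15 and 0.11.

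Relatives of the members in the cytosol and the endoplasmic reticulum gave a median of 0.13 over 18 genes, 16 of them positive and none past the threshold in edgeR (smallest adjusted p 0.333). The CCCP values exceeded both untreated values for 4 of the 18 and lay below both for 1, where 24.0% and 24.8% of all genes did so. Hspa5, the Hsp70 of the endoplasmic reticulum, stood at 1092 and 971 CPM untreated and 1399 and 1285 CPM with CCCP, a log2 fold change of 0.38. It was called by edgeR with the replicate block (adjusted p 0.0487, or 0.0423 with the GC trend removed as well). The block fit called 3.8% of all genes higher, and with the GC trend removed as well 219 of 17929. Cct7, a subunit of the cytosolic chaperonin, had 0.32, with 0.13 when untreated replicate 1 and 0.56 when untreated replicate 2 was left out. The inducible cytosolic Hsp90, Hsp90aa1, had -0.27, with -0.13 when untreated replicate 2, -0.15 when CCCP replicate 2 and -0.40 when CCCP replicate 1 was left out, and -0.10 with the GC trend removed. Dnaja1, a cytosolic J protein, had -0.03. The spans of Dnlz, Yme1l1, Pmpcb, Ddit3, Atf5, Hspa5, Cct7, Grpel2 and Dnaja1 overlap another gene on the opposite strand, so their counts are uncertain. The ratio of Hspa9 to Hspa5 per kilobase was 0.407 and 0.632 in the untreated and 0.405 and 0.433 in the CCCP libraries, with overlap, as was that of Hspa9 to the constitutive cytosolic Hspa8, at 0.286 and 0.266 against 0.279 and 0.215. Per kilobase, Trap1 was 0.0217 to 0.0221 of Hsp90ab1 in the untreated and 0.0184 to 0.0211 in the CCCP libraries. That ratio was lower in both CCCP libraries, by 0.15 on the log2 scale, or by 0.25 without CCCP replicate 1 and 0.06 without CCCP replicate 2. Against Hsp90b1, the Hsp90 of the endoplasmic reticulum, the ratios overlapped. Median exon length of the 18 relatives was 2503 bases and median GC 45.8%, in deciles with median log2 fold changes of 0.10 and -0.10.

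**Figure D5:**
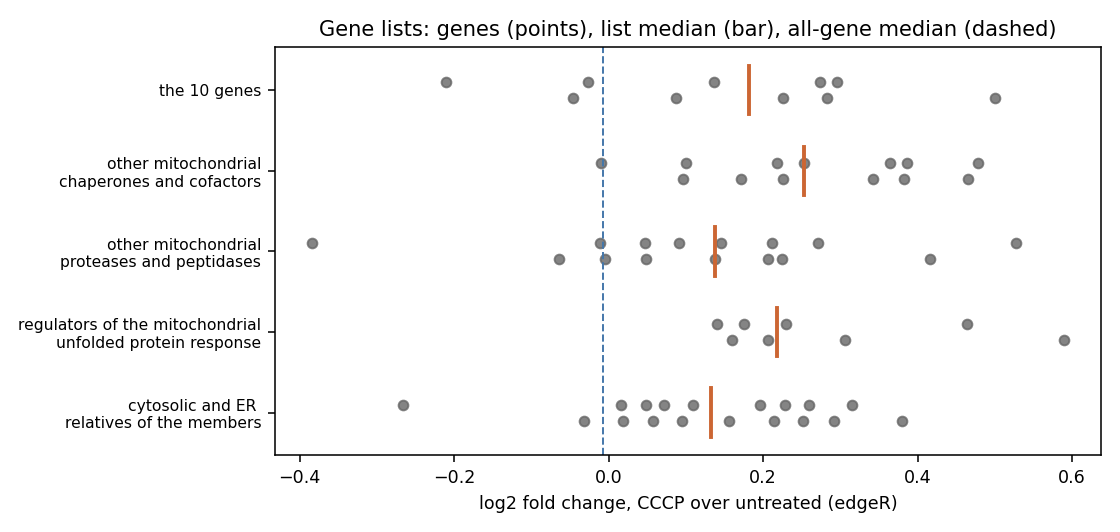
Fold changes (log2, CCCP over untreated, edgeR) of single genes (points) in the 10 genes described here and in 4 lists of related genes, with the list median (bar) and the median of all genes tested (dashed line, -0.01). List medians run from 0.13 to 0.25, and no gene passed the adjusted threshold.

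Over the 4 libraries, the mean centred log2 profile of the 10 members was -0.19 and 0.03 in the untreated and 0.04 and 0.11 in the CCCP libraries. Among 10497 other genes with a mean of at least 10 CPM, those nearest to it by Euclidean distance were Rnf126, Trmt6, Isg20l2, Csnk2a2 and Cxxc5, at distances of 0.007 to 0.019. Likeness over 4 libraries is a weak criterion: 306 of these genes were at least as near as Lonp1, the nearest member, and 6648 as near as Afg3l2, the farthest.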

How the data were processed

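Poly(A) RNA of 4 libraries was read as raw counts per gene deposited by the authors. Per the file headers they were made with featureCounts 2.0.3 on mm10 RefSeq exons, with no strand option and with reads of a pair counted singly, although the labels describe a directional kit. FastQC, HISAT2, SAMtools and Subread are named in the submitters' processing notes. The exon length in bases, an other value in those files, covers all isoforms. Counts were tested with edgeR 4.0.16 in R 4.3.3 (glmQLFit and glmQLFTest, two-sided, group as the sole term, TMM scaling, filterByExpr with minimum count 10 and total 15) over 19837 genes, adjusted p-values by Benjamini-Hochberg at 0.05. A standard error is the log2 fold change divided by the square root of F. DESeq2 1.42.0, other scalings, no filter, a robust fit, left-out libraries, the replicate block, and fits with loess trends on exon length or GC content (GENCODE transcripts) removed were alternatives. Scripts were tested on simulated data. The members and lists were chosen with earlier results of these data known. All 10 members are named; from each list, the 2 smallest p-values in each direction with a mean of at least 5 CPM are named, with partners and paralogs. A count of 3, the floor, equals 0.0614 to 0.0803 CPM, and covers counting error only.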

Additional observations from a re-analysis of the deposited data

How the results depend on the processing

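The count of genes past the threshold was 0 with all 4 libraries, 1107 without the filter, 594 in DESeq2 and from 1 to 34 with a library left out (34 without untreated replicate 2, 22 without CCCP replicate 2), where the lone library is assumed to vary like the other group. It was 2118 with the replicate block, 1216 with the block and the exon length trend removed, and 702 with both the block and removal of the GC trend. For the pairing, deviations from the group means correlated at 0.36 between libraries with the same number, and the labels do not say what the number stands for. Among the members, the replicate block called 1, Clpp (0.50, adjusted p 0.0194 in edgeR), which was called in no other fit. The members' median stayed positive, from 0.07 to 0.35. The fits with a GC trend, and the ratios with a trend removed, were chosen after seeing the data.
With a library left out, log2 fold changes took both signs for Hspa9 (-0.12 to 0.36), Hspd1 (-0.19 to 0.14), Clpx (-0.11 to 0.10), Trap1 (-0.014 to 0.33), Grpel2 (-0.18 to 0.14), Lactb2 (-0.42 to 0.24), Dnaja1 (-0.080 to 0.042) and Hsp90b1 (-0.038 to 0.22), and log2 ratios for Hspa9 over Hspa5 (-0.59 to 0.042), Hspa9 over Hspa8 (-0.36 to 0.016) and Trap1 over Hsp90b1 (-0.23 to 0.38). With the GC trend removed, signs turned for Hspd1 (0.015, or 0.022 with the block added), Clpx (0.104, 0.108), Grpel2 (0.081, 0.074), Lactb2 (0.255, 0.248), Dnaja1 (0.240, 0.239) and Yme1l1 (0.014, 0.013), and for Trap1 over Hsp90b1 (-0.26). Grpel2 also turned without the filter (0.0020) and with the exon length trend removed (0.013, or 0.0029 with the block), as did Hsp90b1 (-0.0030) with that trend removed. The causes were not tested. With 2 libraries a group, spread rather than depth limits these values.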
